A study of Homo sapiens with 18 samples.

Results

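The levels of 10 immediate early genes were followed through every group of the study: the Fos subunits FOS, FOSB and FOSL1, the Jun subunits JUN and JUNB, the transcription factors EGR1, ATF3 and KLF6, and the immediate early response genes IER2 and IER3. They were matched by gene symbol, and all 10 were found among the 31004 genes of the deposited count table. The set was drawn up after FOS had been seen to be lower in the CRLM1 and antisense cells than in the control cells, so the members were chosen by the level of FOS in these contrasts, and the differences of CRLM1_NC and Antisense_NC from Ctrl_NC are given as a description from which nothing is read, with no p-value. RNA was sequenced from HCT116, an established human colorectal carcinoma line, grown in McCoy's 5A medium with fetal bovine serum. The cells carried an empty control (Ctrl), an overexpressed long noncoding RNA, CRLM1, whose gene is LINC01767 (CRLM1), or an antisense control (Antisense); the study describes lentiviral delivery with puromycin selection, and whether a line was 1 clone is not given in the sources used here. Each background also received a construct that overexpresses the RNA-binding protein hnRNPK (hnRNPK) or its negative control (NC). This gave Ctrl_NC, CRLM1_NC, Antisense_NC, Ctrl_hnRNPK, CRLM1_hnRNPK and Antisense_hnRNPK, with 3 libraries each and 18 in all. The study calls the 3 replicates of its CRLM1, antisense and control cells biological, and the labels number the replicates without saying whether they came from separate cultures. P-values measure the spread between these libraries, which may be technical.

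Immediate early genes are transcribed within minutes of a stimulus such as serum, without new protein synthesis. Kinase cascades reach their promoters through the serum response factor SRF, which binds CArG boxes together with factors such as ELK1, and through CREB and ATF proteins, which bind cyclic AMP response elements (CRE). Fos and Jun proteins pair into AP-1, a dimer that controls proliferation, migration and survival genes. In colorectal carcinoma cells AP-1 is a common end point of MAP kinase signalling. IER3 is not a transcription factor but a regulator of survival signalling, and it was kept in the set because the listed symbols include it.

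RefSeq promoters (GRCh38.p14) were matched for 8 of the 10 genes, with 9 promoters in all since ATF3 has more than one. The 150 bases before the start site are shown for the genes whose levels separated the groups most (FOS, FOSB and JUN) and for EGR1, which took another course. Capitals mark CArG boxes and the CRE core TGACG, read on either strand (CGTCA on the opposite one). They are chr14:75278678-75278827 (plus strand) for FOS, chr19:45467846-45467995 (plus strand) for FOSB, chr1:58784048-58784197 (minus strand) for JUN and chr5:138465329-138465478 (plus strand) for EGR1.
FOS: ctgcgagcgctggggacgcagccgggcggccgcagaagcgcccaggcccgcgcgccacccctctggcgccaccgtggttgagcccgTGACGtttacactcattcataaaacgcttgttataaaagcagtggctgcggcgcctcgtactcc
FOSB: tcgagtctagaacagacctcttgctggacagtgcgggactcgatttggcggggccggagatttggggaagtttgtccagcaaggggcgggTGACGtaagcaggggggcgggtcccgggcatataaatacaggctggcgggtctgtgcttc
JUN: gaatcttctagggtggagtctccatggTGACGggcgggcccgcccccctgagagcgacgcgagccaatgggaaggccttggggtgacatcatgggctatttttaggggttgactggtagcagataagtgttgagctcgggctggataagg
EGR1: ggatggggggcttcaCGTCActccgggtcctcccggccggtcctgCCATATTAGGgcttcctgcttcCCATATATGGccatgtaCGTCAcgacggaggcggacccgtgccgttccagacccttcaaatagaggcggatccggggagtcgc
EGR1 was the only one of the 8 genes with a CArG box in the window searched, from 250 bases before to 50 after the start site. Its boxes read CCATATTAGG and CCATATATGG and began 105 and 83 bases before the start. A CArG box was found in 1.29% of 35116 RefSeq promoters of the same length. The CRE core TGACG was found in 6 of the 8 genes (EGR1, FOS, FOSB, IER2, JUN and JUNB) and in 24.6% of all promoters. The full CRE TGACGTCA, which contains this core, was found in 0 of the 8 and in 1.85% of all. The AP-1 site TGANTCA was found in 0 of the 8 and in 7.71% of all, the box TATAAA in 4 (ATF3, FOS, FOSB and JUNB) and in 11.5%, and the GC box GGGCGG in 6 and in 45% of all promoters. These matches describe letters in this window only.

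Total counts ran from 19732681 to 27039520 per library, and the lowest count of any of the 10 genes in any library was 174. Levels are given as CPM, the counts scaled to library size after TMM normalization. HNRNPK measured 424 to 480 CPM in the NC libraries and 491 to 713 CPM in the hnRNPK libraries, where the lowest value belonged to Ctrl_hnRNPK replicate 3. LINC01767 measured 580 to 658 CPM in the CRLM1 libraries and 39.1 to 50.01 CPM in the Antisense libraries, with the strand of the counted reads unknown. It had 0 counts in the 6 Ctrl libraries, which allows up to 0.165 CPM (3 counts in a library, counting error only). Ctrl_hnRNPK replicate 3 and CRLM1_hnRNPK replicate 3 stood apart. The lowest correlation between libraries of their groups was 0.933 and 0.918, against 0.984 in Antisense_hnRNPK and 0.996 in each NC group. Their difference from Ctrl_NC correlated with transcript GC content at a rho of 0.157 and 0.415, against -0.858 to -0.817 for replicates 1 and 2 of these groups. The same rho was -0.746 to -0.664 in Antisense_hnRNPK and -0.381 to 0.070 in the NC libraries. The strong negative rho thus lay in the other hnRNPK libraries. The study set Ctrl_hnRNPK replicate 3 and CRLM1_hnRNPK replicate 3 aside. They are kept here as labelled, and each result that rests on them is also given without the third library of every hnRNPK group in the comparison, which drops Antisense_hnRNPK replicate 3 as well, a library the study did not set aside. Epithelial markers summed to 3497 to 9283 CPM, leukocyte and endothelial markers to at most 0.551 and 0.687 CPM, and a fibroblast list to 11.5 to 32.9 CPM, nearly all of it COL1A1.

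FOS, the founding AP-1 subunit and the gene that prompted the choice of the set, measured 69.2, 60.3 and 59.7 CPM in Ctrl_NC, 28.2, 24.1 and 24.3 CPM in CRLM1_NC and 12.4, 13.5 and 16.5 CPM in Antisense_NC (replicates 1 to 3). Its 3 NC groups did not overlap, and the log2 fold change from Ctrl_NC was -1.32 in CRLM1_NC and -2.22 in Antisense_NC. With the hnRNPK construct FOS measured 80.2, 94.4 and 39.0 CPM in Ctrl, 31.4, 45.6 and 48.7 CPM in CRLM1 and 9.58, 10.1 and 9.66 CPM in Antisense. The Antisense libraries were the lowest again, and the Ctrl and CRLM1 groups overlapped only through Ctrl_hnRNPK replicate 3. In bulk RNA, fewer cells that transcribe a gene and less RNA per cell cannot be told apart. The share of counts from mitochondrial genes moved with the NC groups, at 4.06 to 4.24% in Ctrl_NC, 4.95 to 5.12% in CRLM1_NC and 6.64 to 7.17% in Antisense_NC. In the hnRNPK libraries it was 3.88 to 5.52% in Ctrl, 4.68 to 6.13% in CRLM1 and 5.13 to 7.001% in Antisense. Its part in the levels of FOS, JUN and the other genes that step down between the NC groups was not tested.

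FOSB, a close relative of FOS, measured 57.6, 60.3 and 61.1 CPM in Ctrl_NC, 54.8, 51.7 and 53.0 CPM in CRLM1_NC and 45.4, 36.7 and 37.6 CPM in Antisense_NC. Its log2 fold change from Ctrl_NC was -0.18 in CRLM1_NC and -0.63 in Antisense_NC, and the 3 NC groups did not overlap. With the hnRNPK construct it measured 41.3, 34.8 and 49.4 CPM in Ctrl, 42.9, 41.5 and 72.9 CPM in CRLM1 and 9.74, 5.64 and 14.1 CPM in Antisense. Antisense_hnRNPK thus lay below every other library, while the Ctrl_hnRNPK and CRLM1_hnRNPK ranges overlapped. The gene overlaps ERCC1 on the opposite strand, and since the use of strand in counting is not stated, reads of the pair cannot be told apart.

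FOSL1 (Fra-1), a Fos subunit linked to carcinoma cell invasion, was highest in the CRLM1 cells. It measured 486, 497 and 501 CPM in Ctrl_NC, 629, 627 and 615 CPM in CRLM1_NC and 461, 481 and 474 CPM in Antisense_NC. CRLM1_NC lay above both other NC groups, with a log2 fold change of 0.32 from Ctrl_NC, against -0.12 for Antisense_NC. With the construct it measured 316, 268 and 599 CPM in Ctrl, 489, 512 and 874 CPM in CRLM1 and 248, 271 and 309.9 CPM in Antisense. Replicate 3 was the highest of each of these groups, and Ctrl_hnRNPK overlapped both other groups.

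**Figure D1:**
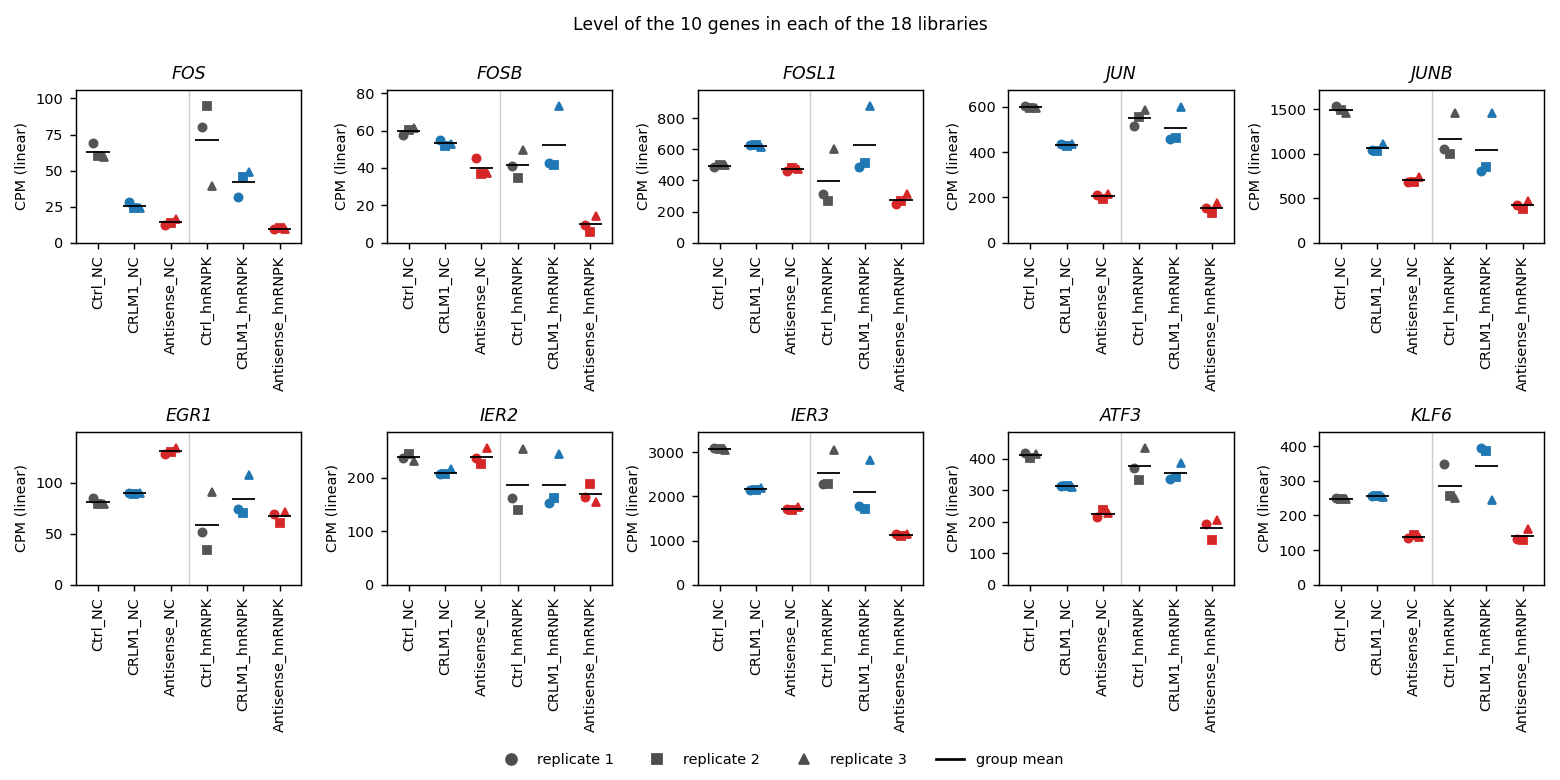
CPM (linear axes from 0) of each of the 10 genes in every library; symbols give the replicate, colours the background, the black line the mean of 3 libraries, and the grey line parts NC from hnRNPK groups. FOS and JUN step down from Ctrl_NC to CRLM1_NC to Antisense_NC without overlap, EGR1 is highest in Antisense_NC at 128 to 134 CPM, and replicate 3 of Ctrl_hnRNPK and CRLM1_hnRNPK often lies far from its group.

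JUN, the main partner of Fos proteins, measured 602, 594 and 597 CPM in Ctrl_NC, 436, 427 and 434 CPM in CRLM1_NC and 210.2, 194 and 215 CPM in Antisense_NC, with no overlap and log2 fold changes from Ctrl_NC of -0.48 and -1.58. With the construct JUN measured 516, 554 and 588 CPM in Ctrl, 459, 462 and 600.0 CPM in CRLM1 and 153, 131 and 175 CPM in Antisense. All 3 Antisense_hnRNPK libraries lay below all Antisense_NC libraries, and those of Ctrl_hnRNPK and CRLM1_hnRNPK overlapped. JUNB, which often restrains JUN within AP-1, measured 1531, 1496 and 1461 CPM in Ctrl_NC, 1037, 1034 and 1110.4 CPM in CRLM1_NC and 678, 686 and 738 CPM in Antisense_NC. With the construct JUNB measured 1058, 1001 and 1454 CPM in Ctrl, 806, 849.9 and 1457 CPM in CRLM1 and 427, 385 and 465 CPM in Antisense. The NC groups did not overlap, and Antisense_hnRNPK lay below every other library. JUNB overlaps HOOK2 on the opposite strand, with the same uncertainty as FOSB.

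ATF3, a stress-induced partner of Jun proteins, measured 417, 403 and 414 CPM in Ctrl_NC, 313, 314 and 309.6 CPM in CRLM1_NC and 214, 235 and 226 CPM in Antisense_NC. With the construct it measured 369.8, 331 and 432 CPM in Ctrl, 336, 341 and 385 CPM in CRLM1 and 192, 142 and 205 CPM in Antisense. It was lowest in the Antisense background throughout, and Ctrl_hnRNPK and CRLM1_hnRNPK overlapped. KLF6, a zinc-finger activator that binds GC boxes, was near the same level in Ctrl_NC and CRLM1_NC. It measured 248 ± 1.75 CPM (mean ± SD, n = 3, lowest 247 CPM) in Ctrl_NC and then, by replicate, 256, 255 and 254 CPM in CRLM1_NC and 136, 143 and 137 CPM in Antisense_NC. With the construct KLF6 measured 347, 256 and 251 CPM in Ctrl, 393, 386 and 245 CPM in CRLM1 and 132, 129.6 and 159.6 CPM in Antisense, so that no Antisense library reached any Ctrl or CRLM1 library. EGR1, a zinc-finger factor and a classical SRF target, was highest in Antisense_NC. It measured 84.6, 79.4 and 79.1 CPM in Ctrl_NC, 90.4, 88.8 and 89.8 CPM in CRLM1_NC and 128, 130.5 and 134 CPM in Antisense_NC. With the construct EGR1 measured 52.1, 33.8 and 90.8 CPM in Ctrl, 74.1, 70.8 and 108 CPM in CRLM1 and 69.9, 60.9 and 71.2 CPM in Antisense, where the groups overlapped.

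IER2, a nuclear regulator of transcription, measured 237, 245 and 231 CPM in Ctrl_NC, 206, 206 and 216 CPM in CRLM1_NC and 236, 226 and 255 CPM in Antisense_NC. With the construct IER2 ranged from 139.7 to 254 CPM in Ctrl, from 152 to 245 CPM in CRLM1 and from 155 to 189 CPM in Antisense, and these groups overlapped. IER3, a regulator of apoptosis, measured 3083, 3078 and 3049.8 CPM in Ctrl_NC, 2145, 2152 and 2190.4 CPM in CRLM1_NC and 1708, 1685 and 1762 CPM in Antisense_NC. With the construct IER3 measured 2275, 2285 and 3041 CPM in Ctrl, 1773, 1717 and 2819 CPM in CRLM1 and 1144, 1094 and 1139.6 CPM in Antisense. The NC groups did not overlap, and Antisense_hnRNPK lay below every other library. IER2 and IER3 both overlap genes on the opposite strand (unnamed antisense genes, and HCG20 and IER3-AS1), so their counts carry the uncertainty named for FOSB. Over the 6 groups, 8 of the 10 genes had their lowest mean in Antisense_hnRNPK, the exceptions being EGR1 (Ctrl_hnRNPK) and KLF6 (Antisense_NC). The highest mean lay in Ctrl_NC for 5 genes, in Antisense_NC for EGR1 and IER2, in CRLM1_hnRNPK for FOSL1 and KLF6 and in Ctrl_hnRNPK for FOS, and the ranges of the top pair of groups did not overlap for FOSB, JUN, JUNB, IER3 and EGR1. The share of all genes with such an order was not counted, so nothing is read from these counts.

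Counts of genes past the threshold were read against all genes tested in the same comparison. A gene passed when its adjusted p was at most 0.05 in edgeR (quasi-likelihood fit, Benjamini-Hochberg over every gene tested), and was called when it also changed at least 2-fold. All 10 genes entered every test. In CRLM1_NC against Ctrl_NC, a contrast in which FOS was noticed, 2 of the 10 passed as higher and 7 as lower, where 16.9% and 17.4% of all 14459 genes did, and only FOS was lower at 2-fold, as 0.809% of all genes were. In Antisense_NC against Ctrl_NC 1 passed as higher and 8 as lower, against 34.4% and 32.2% of 14389 genes, and FOS, JUN and JUNB were lower at 2-fold, as 6.94% were. The median log2 fold change of the 10 was -0.31 and -0.89 in these contrasts. Nothing is read from these counts, since the contrasts chose the set.

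CRLM1_NC against Antisense_NC compares the 2 overexpressed transcripts directly. These libraries had also served to choose the set, so the values are a description. All 10 genes passed, 8 as higher in CRLM1_NC and 2 (EGR1 and IER2) as lower, where 26.9% and 29.5% of 14364 genes passed in these directions. The median log2 fold change was 0.48 over the 10 genes and -0.0034 over all genes tested. JUN was higher by 1.10 (SE 0.04), KLF6 by 0.92 (SE 0.04) and FOS by 0.90 (SE 0.10), and only JUN was called at 2-fold, where 4.01% of all genes were. The smaller differences were 0.64 for JUNB, 0.51 for ATF3, 0.45 for FOSB, 0.44 for FOSL1 and 0.37 for IER3. EGR1 was lower by log2 fold change -0.51 (SE 0.04) and IER2 by -0.15 (SE 0.04). In a single fit of all 18 libraries, which takes in the wide hnRNPK groups, 5 of the 10 passed, all of them higher, where 6.39% of 15668 genes did.

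**Figure D2:**
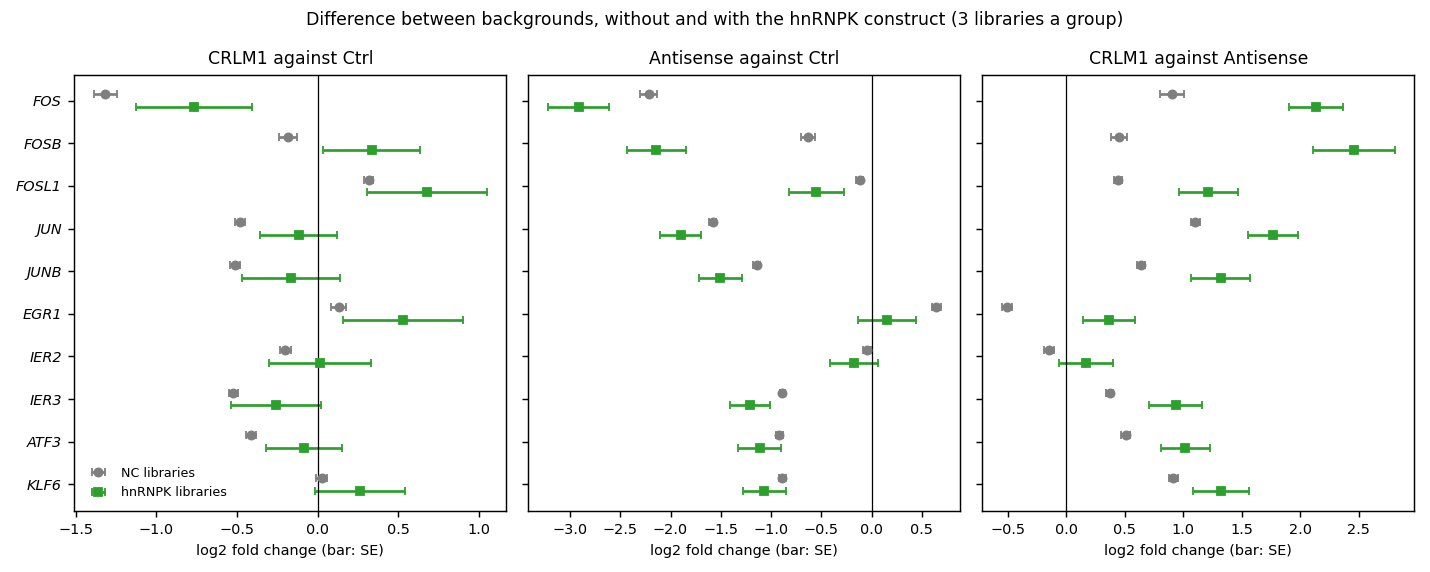
Log2 fold change (bars, SE) of each gene between backgrounds, in NC libraries (grey) and hnRNPK libraries (green), from edgeR fits of 3 libraries against 3; the NC points of the left and middle panels are the contrasts that chose the set. In the Antisense panel FOS lies at -2.22 and -2.91, and EGR1 at 0.64 and 0.16.

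The hnRNPK libraries hold the same backgrounds in other samples. The choice of the set did not name them, but it was made with earlier results of all groups known, so they are not independent evidence. In Antisense_hnRNPK against Ctrl_hnRNPK, 7 of the 10 genes passed, all of them lower and all at least 2-fold, where 19.9% of 14853 genes passed as lower and 11.1% were called lower. FOS was lower by log2 fold change -2.91 (SE 0.30, edgeR adjusted p = 4.34e-05), FOSB by -2.14 (SE 0.29, edgeR adjusted p = 2.27e-04) and JUN by -1.90 (SE 0.20, edgeR adjusted p = 5.13e-05). JUNB followed at -1.50, IER3 at -1.21, ATF3 at -1.11 and KLF6 at -1.07. FOSL1 (-0.55, edgeR adjusted p = 0.124) and EGR1 (0.16, edgeR adjusted p = 0.691) did not pass, nor did IER2. The median was -1.16 over the 10 genes and -0.030 over all genes. Without the third hnRNPK libraries the same 7 genes passed as lower, where 26.1% of all genes did, and EGR1 passed as higher, as 28.6% did, by 0.57 (SE 0.17, edgeR adjusted p = 0.0076). EGR1 also passed without Ctrl_hnRNPK replicate 3 alone, and FOSL1 passed without Ctrl_hnRNPK replicate 2, for 8 genes in each case. Of all genes, 4468 passed as higher and 3899 as lower of 15313 in the first case, and 2990 and 2769 of 15148 in the second.

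In CRLM1_hnRNPK against Antisense_hnRNPK, 8 of the 10 genes passed, all as higher, where 14.9% of 14698 genes did. FOSB was higher by 2.46 (SE 0.35, edgeR adjusted p = 0.0014), FOS by 2.13 (SE 0.23, edgeR adjusted p = 4.99e-04) and JUN by 1.77 (SE 0.21, edgeR adjusted p = 6.47e-04). KLF6 and JUNB were each higher by 1.32, FOSL1 by 1.21, ATF3 by 1.02 and IER3 by 0.94, so that all but IER3 were called at 2-fold, where 8.54% of all genes were. EGR1 and IER2 did not pass. The same 8 genes passed without the third hnRNPK libraries, where 25.1% of all genes passed as higher, and 7 passed without any 1 of the Antisense_hnRNPK libraries, IER3 being lost each time. Of all genes, 851 of 15110, 613 of 14985 and 1042 of 15176 passed as higher without Antisense_hnRNPK replicate 1, 2 and 3. The log2 fold change of all genes correlated with GC content at a rho of 0.498 in this contrast, and with that trend removed the same 8 passed, 4 of them at least 2-fold, where 24.4% of all genes passed as higher.

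In CRLM1_hnRNPK against Ctrl_hnRNPK 0 of the 10 genes passed by edgeR with all libraries, where 2 of 14641 genes passed (0.0137%), while 435 genes and 0 of the 10 had an unadjusted p under 0.05. DESeq2 also passed 0 of the 10. FOS differed by log2 fold change -0.76 (SE 0.36, edgeR adjusted p = 1.00). No label pairs these libraries. Same-numbered ones deviated together (r = 0.816, 0.702 and 0.867), but replicate 2 correlated more with another number (r = 0.801). Replicate 3 stood apart in both groups, so these r values do not show that the numbers mark pairs. With the number as a block, a pairing read from the data, FOSL1 passed as higher by 0.71 (SE 0.10) and EGR1 by 0.61 (SE 0.13). In that fit 3.82% of all genes passed as higher. The block takes in the split of replicate 3, so nothing is read from its calls and no p-value is given. Without the third hnRNPK libraries 6 genes passed, against 16.5% of 14778 genes. FOS was then lower by -1.20 (SE 0.14, edgeR adjusted p = 1.06e-05), with IER3 at -0.40 and JUNB at -0.33, and FOSL1 was higher by 0.77 (SE 0.09, edgeR adjusted p = 1.05e-05), with EGR1 at 0.74 and KLF6 at 0.36.

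The hnRNPK construct was next compared with its negative control in each background. These contrasts share the NC libraries in which FOS was noticed. In the Antisense background 9 of the 10 genes fell, where 30.5% of 14501 genes did. FOSB fell most, with log2 fold change -2.05 (SE 0.25, edgeR adjusted p = 8.01e-05), and was the only one called at 2-fold, where 6.10% of all genes were called lower. EGR1 fell by 0.96 (SE 0.08, edgeR adjusted p = 2.41e-07), FOSL1 by 0.78, JUNB by 0.73, IER3 by 0.62, FOS by 0.53, IER2 by 0.50, JUN by 0.44 and ATF3 by 0.33 on the log2 scale. KLF6 did not pass (0.0098, edgeR adjusted p = 0.926), and ATF3 no longer passed without Antisense_NC replicate 2. That left 8 genes, where 4071 of 14907 genes passed as lower.

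This contrast carried a trend with base composition. Across 14337 genes, which are not independent, the log2 fold change correlated with the GC content of the transcript at a Spearman rho of -0.726, and the median fell from 0.72 in the GC-poorest decile to -0.69 in the richest. The 10 genes are GC-rich, with a median of 56.9% against 49.6% over 16414 protein-coding genes. JUN at -0.44 and JUNB at -0.73 lay next to the medians of their deciles, -0.48 and -0.69. FOSB lay 1.56 and EGR1 0.650 below the median of genes of like GC content (log2 scale). With the trend on GC content and length removed, 4 genes passed, all as lower, where 20.3% of all genes did: FOSB by -1.55 (SE 0.27, edgeR adjusted p = 0.0024), EGR1 by -0.58, FOSL1 by -0.27 and KLF6 by -0.26, while IER2 turned to 0.16. In Antisense_hnRNPK against Ctrl_hnRNPK, where rho was -0.454, removal of the trend left the 7 genes past the threshold as lower, 5 of them at least 2-fold, and IER2 passed as higher by 0.32, where 24.8% of all genes passed as lower and 22.6% as higher.

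**Figure D3:**
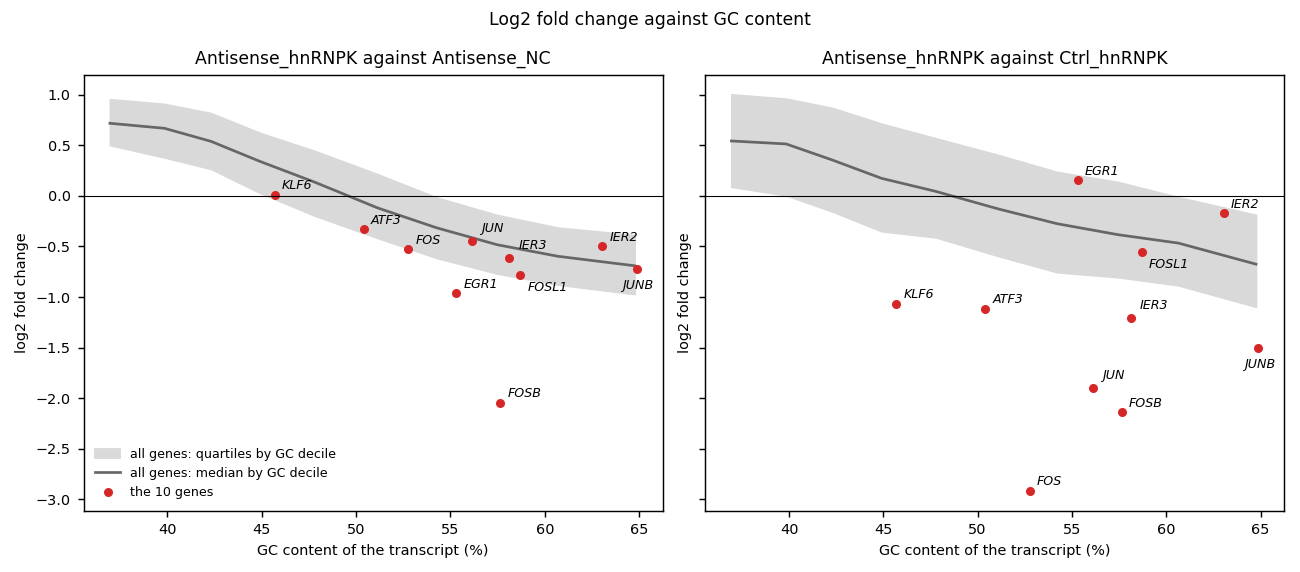
Log2 fold change against GC content of the transcript (%), for Antisense_hnRNPK against Antisense_NC (left) and against Ctrl_hnRNPK (right); the line and band give the median and quartiles of all genes tested in each GC decile, the red points the 10 genes. On the left FOSB and EGR1 lie well below the band, FOSB at -2.05. On the right FOS, FOSB, JUN, JUNB, IER3, ATF3 and KLF6 lie below it, FOS at -2.91.

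In the Ctrl background none of the 10 genes passed by edgeR with all libraries, and neither did any of 14607 genes (0%), while 2246 genes and 1 of the 10 (FOSB) had an unadjusted p under 0.05 and DESeq2 passed 0. KLF6 differed by 0.18 (SE 0.19), FOS by 0.16 (SE 0.29), FOSL1 by -0.36 (SE 0.27) and EGR1 by -0.49 (SE 0.30). Without Ctrl_hnRNPK replicate 3 all 10 passed, where 59.6% of 15004 genes did. FOS was then higher by 0.49 (SE 0.09, edgeR adjusted p = 7.47e-05) and KLF6 by 0.31 (SE 0.11, edgeR adjusted p = 0.0289), and the other 8 were lower, led by EGR1 at -0.89 and FOSL1 at -0.74. With the GC trend also removed 4 passed, FOS and JUN as higher and FOSL1 and EGR1 as lower, so that JUN changed direction, where 9.53% of all genes passed as higher and 14.3% as lower.

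In the CRLM1 background none of the 10 genes passed by edgeR with all libraries, nor did any of 14394 genes (0%), while 1332 genes and 1 of the 10 (FOS) had an unadjusted p under 0.05. DESeq2 passed 2 genes, neither of them in the set. FOS differed by 0.76 (SE 0.21, edgeR adjusted p = 0.533) and was higher in all 3 CRLM1_hnRNPK libraries than in any CRLM1_NC library. KLF6 differed by 0.47 (SE 0.22). Without CRLM1_hnRNPK replicate 3 all 10 passed, where 58.5% of 14685 genes did. KLF6 was then higher by 0.66 (SE 0.05, edgeR adjusted p = 1.24e-12), FOS by 0.64 (SE 0.12, edgeR adjusted p = 4.50e-05), ATF3 by 0.17 and JUN by 0.14, and 6 genes were lower, from -0.26 for EGR1 to -0.37 for IER2. With the GC trend also removed 8 passed, all as higher, where 12.8% of all genes did, so the direction of the 6 lower genes did not hold under that scaling.

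**Figure D4:**
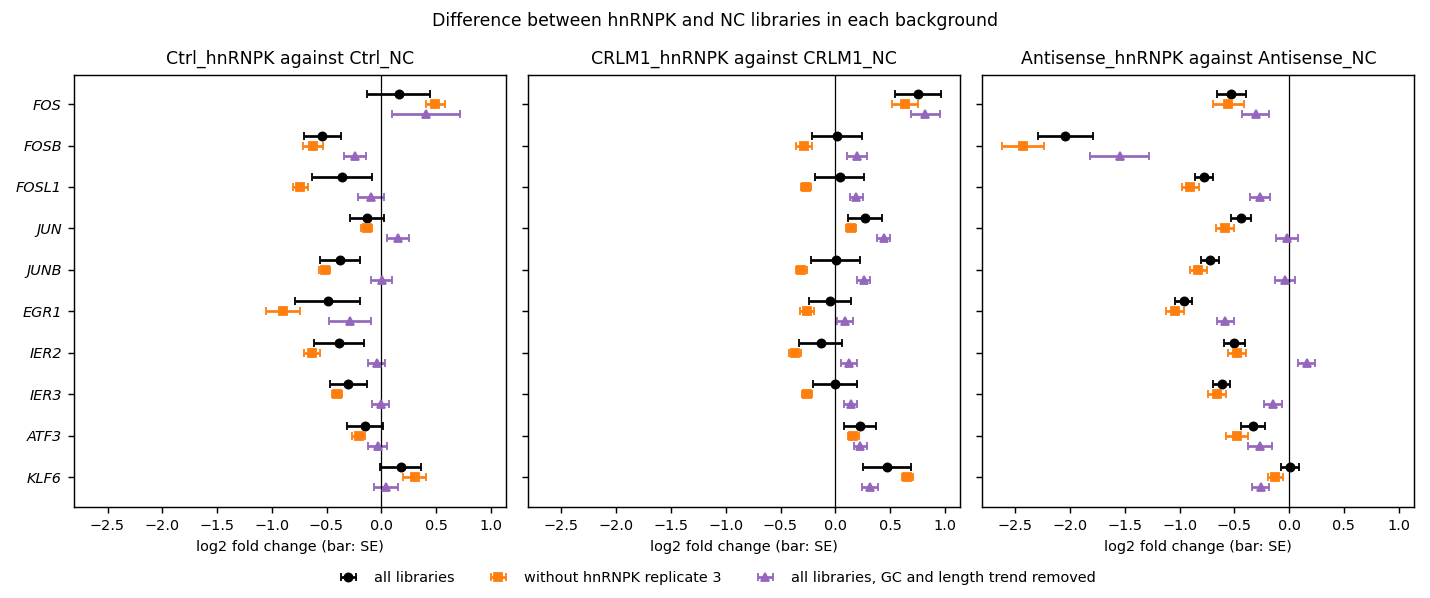
Log2 fold change (bars, SE) of each gene between hnRNPK and NC libraries in the Ctrl, CRLM1 and Antisense backgrounds, with all libraries (black), without hnRNPK replicate 3 (orange) and with the GC and length trend removed (purple). Bars are wide in the Ctrl and CRLM1 panels with all libraries, and FOSB in the Antisense panel lies between -2.43 and -1.55 under the 3 settings.

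Whether the construct acted differently by background was tested with an interaction term. The term takes in the NC libraries in which FOS was noticed, so it does not stand apart from the choice of the set. Between the CRLM1 and Antisense backgrounds FOSB differed by 2.05 (SE 0.38, edgeR adjusted p = 0.0270) and FOS by 1.28 (SE 0.25, edgeR adjusted p = 0.0294), both more positive in the CRLM1 background, where 0.807% of 15233 genes passed in that direction. EGR1 came next at 0.91 (SE 0.22, edgeR adjusted p = 0.0536). An unadjusted p under 0.05 was found for 8 of the 10 and for 3115 of the 15233 genes. Leaving out 1 library ended both calls in 8 of 12 cases (any NC library, Antisense_hnRNPK replicate 1 or 2). In those cases at most 1 gene of all tested passed as higher, so the loss was not particular to FOS and FOSB. Of the 10 genes, 6 passed without CRLM1_hnRNPK replicate 1, 3 without replicate 2 and 9 without replicate 3 of that group. Of all genes, 804 of 15581, 370 of 15587 and 1862 of 15568 passed as higher in these fits. Without the third hnRNPK libraries 9 genes passed, all but IER2, where 17.3% of 15489 genes did in that direction, and with the GC trend removed from all libraries 7 passed, all as higher, where 8.25% of all genes did. Between the Antisense and Ctrl backgrounds 0 of the 10 passed by edgeR (0 of 15346 genes, 0%, against 2179 genes and 2 of the 10 at an unadjusted p under 0.05, and 1 of the 10 by DESeq2), with FOSB at -1.53 (SE 0.32, edgeR adjusted p = 0.103) and FOS at -0.72 (SE 0.34, edgeR adjusted p = 0.346). Without the third hnRNPK libraries FOS (-1.01), FOSB (-1.76), JUN and KLF6 passed there as lower, where 9.47% of all genes did. Between the CRLM1 and Ctrl backgrounds 0 passed by edgeR (0 of 15188 genes, 0%, 221 genes and 0 of the 10 at an unadjusted p under 0.05, and 0 by DESeq2), and without the third hnRNPK libraries 4 did as higher (3.36% of all genes), namely EGR1 (0.66), FOSL1 (0.50), ATF3 (0.40) and JUN (0.30).

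Levels of different genes were compared per transcript length, as FPKM. These values were used as deposited, without the TMM scaling of the CPM, and can order groups otherwise. FOSL1 was 204 FPKM in Antisense_NC and 188 FPKM in Ctrl_NC, but 472 and 495 CPM. The Fos family transcripts were mostly FOSL1, whose share of the sum of FOS, FOSB, FOSL1 and FOSL2 was 81.8% ± 0.632 (SD, n = 3) in Ctrl_NC, against 88.7% ± 0.254 in CRLM1_NC and 86.8% ± 0.456 in Antisense_NC. FOS held 6.53% ± 0.606, 2.27% ± 0.182 and 1.62% ± 0.232 of the sum in these groups. The sum itself was 230.2 ± 2.12 FPKM in Ctrl_NC, 278 ± 2.03 in CRLM1_NC and 235 ± 3.78 in Antisense_NC, and 161 ± 15.003 in Antisense_hnRNPK, so the lower FOS of CRLM1_NC stood beside a larger family sum. The Jun family sum (JUN, JUNB and JUND) went from 1060.2 ± 28.1 FPKM in Ctrl_NC to 774 ± 41.7 in CRLM1_NC, 580.4 ± 19.6 in Antisense_NC and 368 ± 22.4 in Antisense_hnRNPK. JUNB held 54.3% ± 0.272 of it in Ctrl_NC and 59.7% ± 1.00 in Antisense_hnRNPK, while JUND held 34.6% ± 0.550 and 29.3% ± 0.633. These sums are descriptions without a test.

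**Figure D5:**
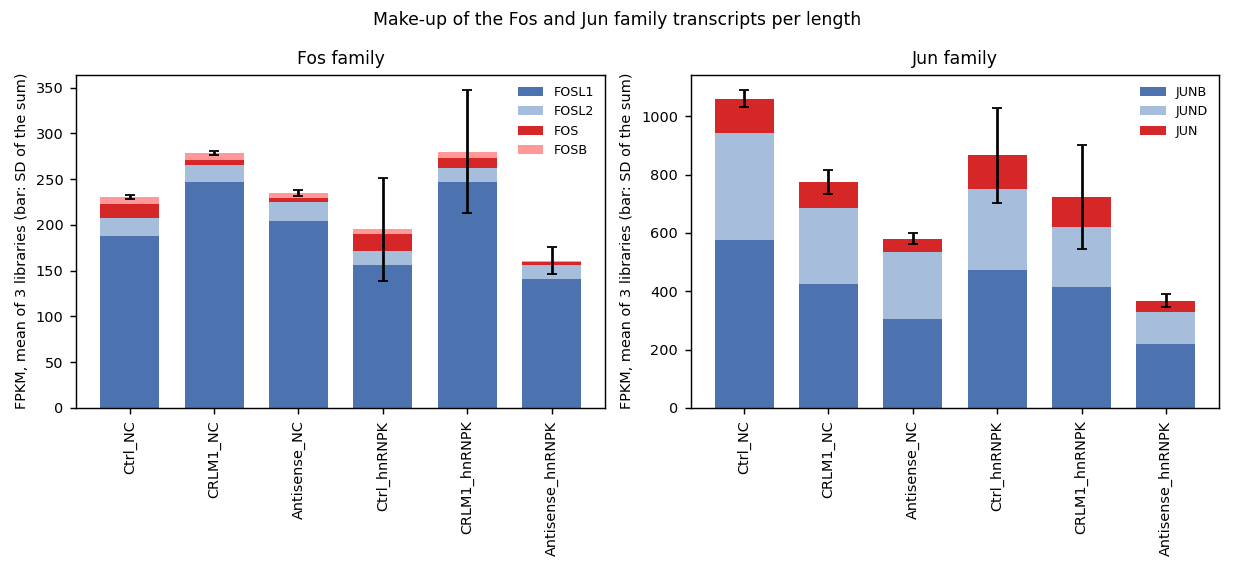
Mean FPKM of the Fos family (left) and Jun family (right) transcripts in each group, stacked from 0; the bar is the SD of the family sum over 3 libraries. FOSL1 and JUNB make up most of each stack, and the Jun sum drops from 1060.2 FPKM in Ctrl_NC to 368 FPKM in Antisense_hnRNPK.

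Other genes of the same programme were read from 4 lists. In Antisense_hnRNPK against Antisense_NC, 14 of 15 other immediate early regulators were lower and 0 higher (median log2 fold change -0.82, against 0.040 over all genes, of which 30.5% passed as lower and 33.4% as higher). They were led by NR4A1, an orphan nuclear receptor, at -1.85, ZFP36, an RNA-binding protein of mRNA decay, at -1.14, EGR2 at -1.11 and BHLHE40 at -1.06. Of 16 immediate early genes that are not transcription factors, 11 were lower and 1 higher (median -0.56), led by the secreted matrix proteins CYR61 at -1.64 and CTGF at -1.32. Of 10 other AP-1 subunits and partners tested, 5 were lower and 2 higher, with JUND at -1.32 and FOSL2 at -0.76. Of 9 serum response and CRE factors, 3 were lower, namely SRF at -1.31, its coactivator MKL1 at -1.07 and ELK1 at -1.05, and 5 were higher, among them CREM at 0.86. The GC trend given above applies to these values too, and its part in them was not tested.

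In CRLM1_hnRNPK against Antisense_hnRNPK, 10 of the 15 other immediate early regulators were higher and 1 lower (median 0.75, against 0.0026 over all genes, of which 14.9% passed as higher and 16.6% as lower), with NR4A1 at 2.16, MYC at 1.84, BHLHE40 at 1.49 and HES1 at 1.47. Of the 16 that are not transcription factors 11 were higher and 0 lower (median 1.14), with CYR61 at 3.87, CTGF at 3.04, GADD45B at 2.92 and DUSP1, a MAP kinase phosphatase, at 2.40. JDP2, a partner that represses AP-1, was lower by log2 fold change -3.003. SRF was higher by 1.34 and CREM lower by -1.62. In CRLM1_NC against Antisense_NC the first list had 10 higher and 3 lower of 14 tested, where 26.9% and 29.5% of all genes passed in these directions, and the lower ones included EGR3 at -1.74 and EGR2 at -0.98, relatives of EGR1 at levels of at most 3.36 CPM. In Antisense_hnRNPK against Ctrl_hnRNPK 9 were lower and 2 higher of 15, and 10 were lower and 0 higher of the 16 others, where 19.9% of all genes passed as lower and 20.9% as higher, and DUSP1 lay at -2.73. In Ctrl_hnRNPK against Ctrl_NC, CRLM1_hnRNPK against CRLM1_NC and CRLM1_hnRNPK against Ctrl_hnRNPK no gene of the 4 lists passed with all libraries.

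Over the 18 libraries, which share 6 groups, the genes most like each member in log2(CPM + 1) were sought among 10096 genes of mean CPM at least 5. JUN and ATF3 were both most like DUSP1 (Pearson r = 0.990 and 0.982). JUNB was most like STMN3 (r = 0.992) and then IER3 (r = 0.989), and IER3 was most like JUNB. FOSB was most like RAB3A (r = 0.987), with NR4A1 second (r = 0.984). FOS was most like CTTN (r = 0.971), FOSL1 like ACTN4 (r = 0.983), KLF6 like SMS (r = 0.972), EGR1 like ZC3H12A (r = 0.979) and IER2 like an unnamed gene, CTC-250I14.6 (r = 0.964). Within the set, JUN and ATF3 correlated at 0.974 and FOS and JUN at 0.920, whereas EGR1 correlated at -0.423 with FOS and at 0.769 with IER2. These are descriptions: the libraries fall into groups that also differ in base composition.

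The 10 genes share a low exon count, which the choice by symbol did not use. All 10 had at most 4 exons, as 22.96% of protein-coding genes did. Their median span on GRCh38 (Gencode version 44) was 5843 bases against 31229.5 over protein-coding genes, though ATF3 spans 55444 bases. JUN (chromosome 1, 58776845 to 58784048, minus strand) and JUNB (chromosome 19, 12791486 to 12793315, plus strand) have a single exon. FOS lies on chromosome 14, 75278826 to 75282230 (plus strand, 4 exons), FOSB on chromosome 19, 45467995 to 45475179, FOSL1 on chromosome 11, 65892049 to 65900573, and EGR1 on chromosome 5, 138465479 to 138469303. The AU-rich pentamer ATTTA, a mark of short-lived mRNA, occurred at a median of 2.01 per kb of 3' UTR in the set and 1.53 in protein-coding genes, with the highest density in IER3 (8.14) and FOS (6.20) and no copy in IER2.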

How the data were processed

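RNA-seq of 18 HCT116 libraries in 6 groups of 3 was used. The authors trimmed reads with FASTX-Toolkit, aligned them with TopHat2 to GRCh38 (Gencode annotation) and counted uniquely mapped reads per gene. The deposited count table and the deposited FPKM table were used as they stand, with 0 unmapped columns, and strand use in counting is not given in the sources used here. The 10 members and the gene lists were chosen with earlier results of these data known. Named list genes were the 4 of largest change among those that passed with a mean of at least 1 CPM. Genes were filtered with filterByExpr, scaled by TMM and tested with edgeR (version 4.0.16, R 4.3.3) quasi-likelihood fits of the groups compared, with Benjamini-Hochberg adjustment over all genes. Alternatives used DESeq2 (1.42.0), limma (3.58.1, log2(FPKM + 1) or + 0.1), other scaling or filters, a replicate block, single libraries left out, and removal of a spline trend on GC content and length; leaving out the third hnRNPK libraries together with that removal was added after seeing the data. On simulated data edgeR recovered 97% of genes changed 2-fold and 48% of those changed 1.5-fold, for CRLM1_NC against Ctrl_NC with 14411 genes. In the simulation 9 unchanged genes passed. Every gene was given the same spread between replicates, taken from these groups. The figures therefore do not describe genes of other spread or the wider hnRNPK groups. Same-numbered replicates deviated together in CRLM1_hnRNPK against Ctrl_hnRNPK (r = 0.816, 0.702 and 0.867). The fit with the numbers as pairs is an alternative there, and that reading comes from the data. Replicate 3 stood apart in both groups, so these r values do not show that the numbers mark pairs. Against a library of another number the highest r was 0.602, 0.801 and -0.685, so replicate 2 correlated more with another number than with its own. Total counts were 19732681 to 27039520 per library.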

Additional observations from a re-analysis of the deposited data

Results flagged for a closer look

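The effect of the hnRNPK construct differed between the CRLM1 and Antisense backgrounds for FOS, by 1.28 on the log2 scale (edgeR adjusted p = 0.0294), and for FOSB, by 2.05 (edgeR adjusted p = 0.0270), each tested with an interaction term. Both are marked because the 2 backgrounds differed under the same contrast. Both calls were lost without any 1 of 8 libraries, as given above, and in those fits at most 1 gene of all tested passed as higher. The term takes in the NC libraries in which FOS was noticed, so these p-values are not independent of the choice of the set.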

How the results depend on the processing

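Counts below are of the 10 genes past the adjusted p of 0.05. The number of all genes that passed moved between settings as well, so these counts alone do not single out the 10. One fit of all 18 libraries gave 1 instead of 9 in CRLM1_NC against Ctrl_NC, 5 instead of 10 in CRLM1_NC against Antisense_NC and 1 instead of 2 in the interaction of CRLM1 and Antisense. Over all 15668 genes it passed 53 as higher and 49 as lower in the first of these, against 2449 and 2511 of 14459 in the main fit. In the second it passed 1001 and 1356, against 3860 and 4242 of 14364. In the interaction it passed 107 and 73, against 123 and 48 of 15233. Leaving out the third hnRNPK libraries, alone and with the GC and length trend removed, gave 10 and 4 for hnRNPK in Ctrl, 10 and 8 in CRLM1, 6 and 5 in CRLM1_hnRNPK against Ctrl_hnRNPK, and for the interactions 4 and 2 (CRLM1 minus Ctrl), 4 and 5 (Antisense minus Ctrl) and 9 and 9 (CRLM1 minus Antisense). The shares of all genes without the third libraries are given above. With the trend also removed, 1368 genes passed as higher and 1014 as lower of 14778 in CRLM1_hnRNPK against Ctrl_hnRNPK. For the interactions, in the same order, 222 and 12 of 15485, 1120 and 1414 of 15695, and 2559 and 1646 of 15489 passed. GC removal alone gave 2 for hnRNPK in CRLM1, 4 in Antisense, 1 for Antisense minus Ctrl and 7 for CRLM1 minus Antisense. Of all genes, 58 passed as higher and 32 as lower of 14394 for hnRNPK in CRLM1, and 169 and 189 of 15346 for Antisense minus Ctrl. Without a filter on low counts Antisense minus Ctrl and CRLM1 minus Antisense gave 1 and 4, by DESeq2 1 and 5, and limma with a pseudocount of 0.1 gave 1 for CRLM1 minus Antisense. For Antisense minus Ctrl, 81 genes of all passed as higher and 310 as lower of 29494 without a filter, and 143 and 146 of 12339 by DESeq2. For CRLM1 minus Antisense these were 602 and 304 of 29191, 652 and 375 of 12779, and 63 and 111 of 18440 with limma. The cause of these changes was not tested. Without 1 library the counts ran from 0 to 10 for hnRNPK in Ctrl and in CRLM1, 8 to 9 in Antisense, 0 to 2 for Antisense minus Ctrl and 0 to 9 for CRLM1 minus Antisense. In Ctrl and in CRLM1 the 10 came only without replicate 3 of the hnRNPK group, where 59.6% and 58.5% of all genes passed. Without any other single library 0 genes of all passed there. The genes of all that passed ran from 0 to 593 as lower for Antisense minus Ctrl and from 0 to 1862 as higher for CRLM1 minus Antisense. The replicate block gave 2 in CRLM1_hnRNPK against Ctrl_hnRNPK and changed no other call; elsewhere same-numbered libraries correlated at -0.313 to 0.148. Over all comparisons, 88 of 2040 alternative values of the 10 genes reversed in sign, and 3 of them were past the threshold under both signs. Among the reversed values were KLF6 in CRLM1_NC against Ctrl_NC (-0.049, GC removed), FOSL1 in Antisense_NC against Ctrl_NC (0.12 with limma at either pseudocount, 0.031 with GC removed) and IER2 there (0.19 with limma at either pseudocount, 0.12 with GC removed, -0.087 to 0.0017 without 1 library). In Antisense_hnRNPK against Antisense_NC IER2 gave 0.16 with GC removed and 0.20 also without the third library, and KLF6 gave -0.016 (RLE), -0.018 (DESeq2), -0.26 (GC removed), -0.13 (without the third library), -0.34 (both) and -0.13 to 0.047 without 1 library. Without 1 library FOS in Ctrl_hnRNPK against Ctrl_NC ran from -0.10 to 0.49, and EGR1 in Antisense_hnRNPK against Ctrl_hnRNPK from -0.11 to 0.62.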
